A study of Mus musculus with 20 samples.

Results

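De novo fatty acid synthesis turns citrate into long-chain fatty acids in the cytosol. It is described here through 8 genes, *Slc25a1*, *Acly*, *Acss2*, *Me1*, *Acaca*, *Mid1ip1*, *Fasn* and *Acsl3*, chosen by gene name from citrate export to acyl-CoA out of the 54532 genes of the expression table. RNA was sequenced from articular chondrocytes, the cells of joint cartilage, taken from 6-week-old mice and treated for 48 h. The groups were 2 µM GW3965, a synthetic ligand that activates the liver X receptors (LXR), 20 µM 25-hydroxycholesterol-3-sulfate (25HC3S), 20 µM 25-hydroxycholesterol (25HC), and Vehicle, which was DMSO, with 5 libraries each and 20 in all. 25HC and 25HC3S differ by a sulfate group at the 3 position of the sterol. The labels do not say whether replicate libraries are separate animals, cultures or repeats of one preparation. A p-value here therefore reflects variation among libraries, technical variation included.

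Citrate made in mitochondria is carried to the cytosol and cleaved to acetyl-CoA, which is carboxylated to malonyl-CoA and then joined, with NADPH as the reductant, into palmitate by fatty acid synthase. Palmitate is activated to acyl-CoA before it is desaturated, elongated or built into lipids. Many genes of the route are textbook targets of SREBP-1c, the product of *Srebf1*, which is itself switched on by LXR in liver. Oxysterols such as 25HC are known as LXR ligands and as inhibitors of SREBP processing through the INSIG proteins.

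The 8 genes lie on mouse chromosomes 16, 11, 2, 9, X and 1, at the coordinates of GENCODE release M21 (GRCm38), with which the table's coordinates are identical for all 8. *Slc25a1* (ENSMUSG00000003528) spans chr16:17925223-17928219 and *Acly* (ENSMUSG00000020917) spans chr11:100476353-100528000, both on the minus strand. *Acss2* (ENSMUSG00000027605) spans chr2:155517948-155585724 on the plus strand and *Me1* (ENSMUSG00000032418) spans chr9:86581371-86695953 on the minus strand. *Acaca* (ENSMUSG00000020532) spans chr11:84129672-84401651 on the plus strand, with 17074 bases of exons, the longest of the 8. *Mid1ip1* (ENSMUSG00000008035) spans chrX:10715013-10719690 on the plus strand and *Fasn* (ENSMUSG00000025153) spans chr11:120805846-120824547 on the minus strand. *Acsl3* (ENSMUSG00000032883) spans chr1:78657825-78707743 on the plus strand. *Acss2* shares 395 exonic bases with *Gss* and 197 with *Ggt7* on the opposite strand, and *Acsl3* shares 244 with *Utp14b* on the same strand. The strand setting of the counting is not given in the sources used here, so fragments from those stretches cannot be assigned with certainty.

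The promoters of the 3 genes with the largest log2 differences between GW3965 and Vehicle are shown for their common control letters. They are RefSeq windows on GRCm38.p6, from 250 bases before to 50 bases after a start site, read 5′ to 3′ on the gene's strand. Capitals mark the NF-Y letters CCAAT and the GC box letters GGGCGG on either strand (ATTGG and CCGCCC on the other). The *Fasn* window is chr11:120824498-120824797 (minus strand), the *Mid1ip1* window chrX:10717115-10717414 (plus strand, at a start inside the gene's span) and the *Acsl3* window chr1:78657575-78657874 (plus strand).
Fasn: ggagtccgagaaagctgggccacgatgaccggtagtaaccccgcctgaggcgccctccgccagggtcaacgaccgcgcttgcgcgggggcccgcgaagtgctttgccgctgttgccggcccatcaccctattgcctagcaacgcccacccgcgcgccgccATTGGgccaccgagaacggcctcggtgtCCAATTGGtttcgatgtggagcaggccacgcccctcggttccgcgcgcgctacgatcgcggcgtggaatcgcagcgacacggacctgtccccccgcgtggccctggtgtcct
Mid1ip1: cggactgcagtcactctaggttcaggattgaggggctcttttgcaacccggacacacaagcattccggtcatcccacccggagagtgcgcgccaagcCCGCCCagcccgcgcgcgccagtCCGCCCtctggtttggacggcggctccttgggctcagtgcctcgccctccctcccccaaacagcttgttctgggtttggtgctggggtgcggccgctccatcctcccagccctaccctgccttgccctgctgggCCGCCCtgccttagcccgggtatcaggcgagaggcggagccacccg
Acsl3: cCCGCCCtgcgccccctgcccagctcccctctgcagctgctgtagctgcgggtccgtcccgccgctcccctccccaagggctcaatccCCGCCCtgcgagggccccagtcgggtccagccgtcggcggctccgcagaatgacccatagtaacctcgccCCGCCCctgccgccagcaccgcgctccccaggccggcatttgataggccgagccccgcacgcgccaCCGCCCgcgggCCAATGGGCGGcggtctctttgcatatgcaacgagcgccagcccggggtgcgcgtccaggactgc
*Fasn* held 3 CCAAT matches and no GC box, and 2 of the 3, starting 62 and 59 bases before the start site, share letters in one palindromic run. *Mid1ip1* held 3 GC boxes and no CCAAT. *Acsl3* held 5 GC boxes and 1 CCAAT, which begins 15 bases before the start site and runs straight into a GC box. Over the 9 windows of the 8 genes (*Me1* has 2), 6 held CCAAT and 6 held a GC box, while 37.4% and 35.7% of all 32851 windows did. The sterol regulatory element letters TCACNCCAC matched in 0 of the 9 and in 1.24% of all windows, and the E-box CACGTG in 1 of the 9, that of *Slc25a1*, and in 7.15% of all. The DR4 repeat, the idealised LXR element of 2 hexamers, matched in 0 of the 9 and in 0.0152% of all windows. Both strands were searched. A match is a description of letters, and no match says only that these exact letters are not in this window.

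Levels were deposited as FPKM, a fragment number divided by gene length and by a factor of the library. That factor was not the total of fragments in genes alone. Differences are given on the log2(FPKM + 1) scale with their standard error (SE). The libraries held 14653777 to 19365220 fragments in genes. Vehicle replicates 2, 3 and 4 and 25HC3S replicate 1 stand apart from the other 16 libraries, with 237 to 1171 genes at exactly 1 fragment, against 1808 to 2057 in the others, and with 16346 to 19648 detected genes, against 20847 to 21607. Mitochondrially encoded genes held 0.369% to 4.07% of their fragments, against 0.889% to 1.41% in the others. All 9 chondrocyte markers were measured in every group, and their summed level was 3930 to 4850 FPKM in GW3965, 2480 to 3770 in 25HC3S, 3730 to 4090 in 25HC and 1790 to 5160 in Vehicle libraries. Macrophage markers were present as well, with a summed level of 850 to 976 FPKM in GW3965, 368 to 696 in 25HC3S, 665 to 938 in 25HC and 400 to 960 in Vehicle libraries. Synovial fibroblast markers summed to 3990 to 4770 FPKM in GW3965 and 3350 to 8120 in Vehicle libraries. With the oxysterols they summed to 3960 to 4190 in 25HC3S and 4350 to 5080 in 25HC. Osteoblast markers summed to 920 to 962 FPKM in GW3965 and 777 to 1130 in Vehicle libraries. Their sums were 749 to 1070 in 25HC3S and 1040 to 1150 in 25HC. Most of the synovial fibroblast sum was *Col1a1* and *Col1a2*, at means of 2880 and 1390 FPKM in GW3965. There *Prg4* averaged 133 FPKM, *Dpp4* 0.665 and *Pi16* 0.0314. Most of the osteoblast sum was *Spp1*, at a mean of 799 FPKM in GW3965, where *Ibsp* averaged 84.8 and *Dmp1* 0.0495. These 2 sums alone do not show that synovial fibroblasts or osteoblasts were present. In bulk samples that may hold several cell types, fewer cells of a type and less RNA per cell cannot be told apart. Results that rest on the 4 libraries are given with and without them. Without them Vehicle keeps only 2 libraries, replicates 1 and 5, and 25HC3S keeps 4.

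In Vehicle libraries the order of mean levels was *Me1*, *Acly*, *Fasn*, *Slc25a1*, *Mid1ip1*, *Acaca*, *Acsl3* and *Acss2*, and neighbours in that order overlapped across the libraries, except *Acly* over *Fasn*, *Slc25a1* over *Mid1ip1* and *Acsl3* over *Acss2*. In GW3965 libraries the order was *Fasn*, *Acly*, *Me1*, *Slc25a1*, *Mid1ip1*, *Acsl3*, *Acaca* and *Acss2*, and only *Me1* and *Slc25a1* overlapped. The summed level of the 8 genes was 278 to 297 FPKM in GW3965 libraries (median 295), 133 to 142 in 25HC3S (median 136), 152 to 162 in 25HC (median 156) and 140 to 163 in Vehicle (median 148).

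**Figure D1:**
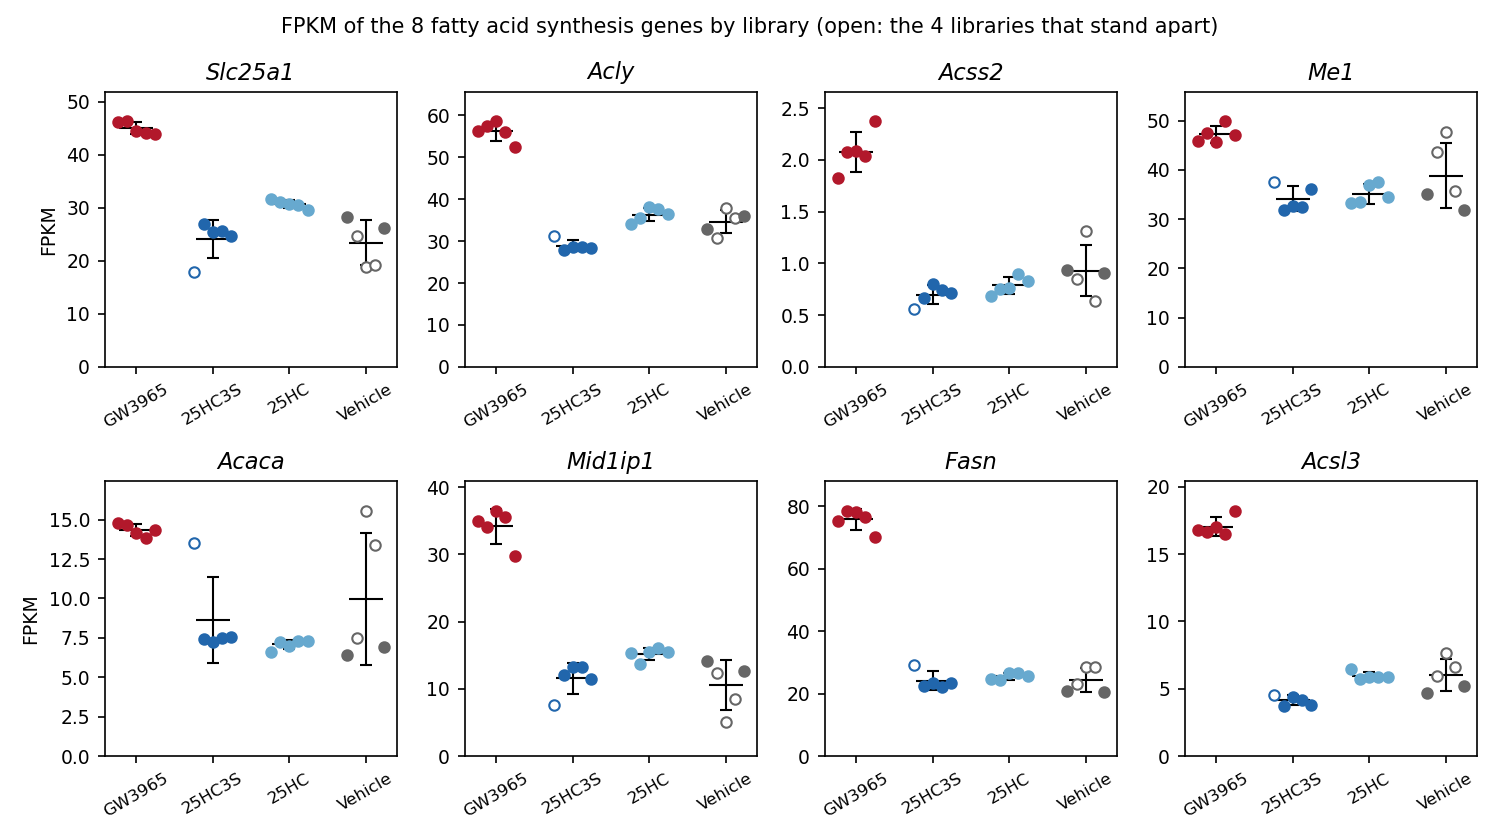
FPKM of each of the 8 genes in the 20 libraries, by group, with the group mean and SD. Open points are the 4 libraries that stand apart. *Fasn* sits between 70.1 and 78.6 FPKM in GW3965 libraries and between 20.5 and 28.7 FPKM in Vehicle libraries.

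GW3965 against Vehicle asked what an LXR agonist does to the route. Of the 7 genes at 1 FPKM or more in every library, 5 rose with GW3965, namely *Mid1ip1*, *Fasn*, *Acsl3*, *Slc25a1* and *Acly*, and *Acaca* and *Me1* did not pass the test. Over all 12752 genes tested, 3.49% were called higher at an adjusted p under 0.05 (limma, Benjamini-Hochberg). With the 4 libraries set aside, all 7 rose, against 3.98% of all genes. That fit rests on 2 Vehicle libraries, as does every value against Vehicle given without the 4. Mean FPKM was 3.23-fold that of Vehicle for *Mid1ip1*, 3.11-fold for *Fasn*, 2.82-fold for *Acsl3*, 1.92-fold for *Slc25a1* and 1.62-fold for *Acly*. Without the 4 libraries the order changed, with 3.65-fold for *Fasn*, 3.43-fold for *Acsl3*, 2.54-fold for *Mid1ip1*, 1.65-fold for *Slc25a1* and 1.63-fold for *Acly*.

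*Slc25a1*, the mitochondrial citrate carrier, measured 46.2, 46.3, 44.5, 44.2 and 43.8 FPKM in GW3965 replicates 1 to 5, against 28.3, 24.6, 18.7, 19.3 and 26.2 in Vehicle replicates 1 to 5. The groups did not overlap, and Vehicle replicates 3 and 4 were the lowest of the 10. Here and in every comparison below, how many of all genes tested lacked overlap was not counted. The log2 difference was 0.93 ± 0.11 (limma, adjusted p = 2.2e-05), and 0.70 ± 0.04 without the 4 libraries.

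*Acly*, ATP-citrate lyase, which cleaves cytosolic citrate to acetyl-CoA, measured 56.2, 57.5, 58.6, 56.0 and 52.5 FPKM with GW3965, against 33.0, 30.8, 37.9, 35.5 and 35.9 with Vehicle. Every GW3965 library was above every Vehicle library, and the 3 Vehicle libraries that stand apart lay between 30.8 and 37.9 FPKM, close to the other 2 at 33.0 and 35.9. The log2 difference was 0.69 ± 0.06 (limma, adjusted p = 4.5e-07), and 0.69 ± 0.05 without the 4 libraries.

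*Acss2*, which makes cytosolic acetyl-CoA from acetate, was the rarest of the 8, at 89 to 411 fragments a library. It measured 1.83, 2.08, 2.09, 2.03 and 2.37 FPKM with GW3965, against 0.94, 0.846, 1.31, 0.634 and 0.909 with Vehicle, and the groups did not overlap. It reached 1 FPKM in 6 libraries, 5 of them GW3965, and so passed the filter on low values only through the group where it was high. For that reason it is left out of the counts of genes that rose or fell, and its values are given as a description. Its log2 difference of 0.68 ± 0.09 understates the 2.24-fold ratio of its mean FPKM, because of the added 1.

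*Me1*, the cytosolic malic enzyme that makes NADPH, measured 45.9, 47.4, 45.7, 49.9 and 47.1 FPKM with GW3965, against 35.1, 43.7, 47.6, 35.8 and 31.9 with Vehicle. The groups overlapped through Vehicle replicate 3. Its log2 difference of 0.29 ± 0.09 did not pass (limma, adjusted p = 0.055, 95% interval 0.11 to 0.48), and it was 0.48 ± 0.06 without the 4 libraries (adjusted p = 6.2e-05).

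*Acaca*, acetyl-CoA carboxylase 1, makes malonyl-CoA, the committed step. It measured 14.8, 14.7, 14.1, 13.8 and 14.3 FPKM with GW3965, against 6.44, 7.52, 15.6, 13.4 and 6.93 with Vehicle. The Vehicle libraries split widely, with replicates 3 and 4 at or near the GW3965 level and replicates 1, 2 and 5 near 7 FPKM. The log2 difference was 0.57 ± 0.19 (limma, adjusted p = 0.0756, 95% interval 0.16 to 0.97) and 1.00 ± 0.04 without the 4 libraries (adjusted p = 2.7e-10), and what sets the *Acaca* level in replicates 3 and 4 was not tested.

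*Mid1ip1*, which encodes a small protein that promotes assembly of acetyl-CoA carboxylase into active polymers, measured 34.9, 34.1, 36.5, 35.5 and 29.8 FPKM with GW3965, against 14.2, 12.4, 5.13, 8.49 and 12.7 with Vehicle. The lowest GW3965 library lay well above the highest Vehicle library. Its log2 difference of 1.67 ± 0.19 (limma, adjusted p = 1.4e-05) was 1.28 ± 0.08 without the 4 libraries, and Vehicle replicates 3 and 4 lay at 0.381 and 0.631 of the mean of Vehicle replicates 1 and 5.

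*Fasn*, fatty acid synthase itself, measured 75.2, 78.6, 78.3, 76.6 and 70.1 FPKM with GW3965, against 21.0, 23.1, 28.7, 28.4 and 20.5 with Vehicle, on 3645 to 15133 fragments a library over all groups. The groups lay far apart, and the Vehicle libraries that stand apart were the 3 highest of their group. The log2 difference was 1.61 ± 0.09 (limma, adjusted p = 8.7e-10), and 1.82 ± 0.05 without the 4 libraries. *Acsl3*, which activates long-chain fatty acids to acyl-CoA at the endoplasmic reticulum and lipid droplets, measured 16.8, 16.6, 17.0, 16.5 and 18.2 FPKM with GW3965, against 4.71, 5.96, 7.62, 6.64 and 5.2 with Vehicle. Here too no library of one group reached the other, and the difference was 1.37 ± 0.09 (limma, adjusted p = 4.1e-09), or 1.60 ± 0.06 without the 4 libraries.

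GW3965 was also set against both oxysterols, at unlike doses (2 µM against 20 µM), so these comparisons are of the treatments as given. Against 25HC, neither group holds any of the 4 libraries that stand apart, and 7 of the 7 genes rose, while 0.847% of all genes tested were called higher. The 4 libraries still enter through the spread, which is estimated over all 20 libraries. Without them 7 of the 7 genes rose and 804 of the 12752 genes were called higher. Mean FPKM with GW3965 was 2.97-fold that of 25HC for *Fasn*, 2.85-fold for *Acsl3*, 2.25-fold for *Mid1ip1*, 2.03-fold for *Acaca*, 1.55-fold for *Acly*, 1.47-fold for *Slc25a1* and 1.35-fold for *Me1*. *Acaca*, which did not pass against Vehicle, was 0.93 ± 0.19 higher here on the log2 scale (limma, adjusted p = 0.0116), and *Me1* 0.42 ± 0.09 (adjusted p = 0.0137). *Acss2*, which entered the test only through GW3965, differed by 0.78 ± 0.09, given as a description. For each of the 7 genes, and for *Acss2* as a description, no GW3965 library overlapped any 25HC library. How many of all genes tested were without overlap was not counted. By the size of the log2 difference, *Fasn* was the 9th, *Acsl3* the 13th, *Mid1ip1* the 17th and *Acaca* the 30th highest of the 12752 genes tested.

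Against 25HC3S, 7 of the 7 genes rose with GW3965, while 2.51% of all genes tested were called higher. The log2 difference was 1.81 for *Acsl3* (adjusted p = 2.6e-11), 1.61 for *Fasn* (3.9e-10), 1.51 for *Mid1ip1* (2.8e-05), 0.93 for *Acly* (2.8e-09), 0.89 for *Slc25a1* (2.2e-05) and 0.46 for *Me1* (0.0027), all by limma with Benjamini-Hochberg adjustment. *Acaca* was 0.71 ± 0.19 higher with GW3965, and this call (adjusted p = 0.0378) was lost in 9 of the 10 fits that left out 1 library of either group, where the adjusted p reached 0.0966. The differences of the 7 genes ran from 0.49 to 1.84 without the 4 libraries and from 0.46 to 1.81 with them. No GW3965 library overlapped a 25HC3S library for any of the 7 genes, nor for *Acss2*, given as a description. The share of all genes tested without overlap was not counted here either. Markers of other cell types moved here as well. Of 9 macrophage markers 3 were higher and 1 lower with GW3965 than with 25HC3S, and 7 and 1 without the 4 libraries. Of 5 adipocyte markers 1 was higher, and 2 without the 4. Of 8 proliferation markers 6 were lower, and 8 without the 4, while 2.13% of all genes were called lower. In the fit without the 4, 9.27% of all genes were called higher and 8.59% lower. Against 25HC 5 of the 8 proliferation markers were lower, beside 0.894% of all genes, 1 of 9 macrophage markers was lower and 0 of 5 adipocyte markers were called. Without the 4 libraries 8 of the 8 proliferation markers were lower, beside 870 of the 12752 genes. Of 9 macrophage markers 1 was then higher and 1 lower. Of 9 chondrocyte and 5 osteoblast markers 0 were called in either comparison with all libraries. Without the 4, 3 chondrocyte markers were lower and 1 higher against 25HC, and 3 osteoblast markers were lower. Against 25HC3S 3 chondrocyte markers were then higher and 2 osteoblast markers lower. The part of these cells in the results was not tested. These comparisons and that with Vehicle use the same 5 GW3965 libraries.

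**Figure D2:**
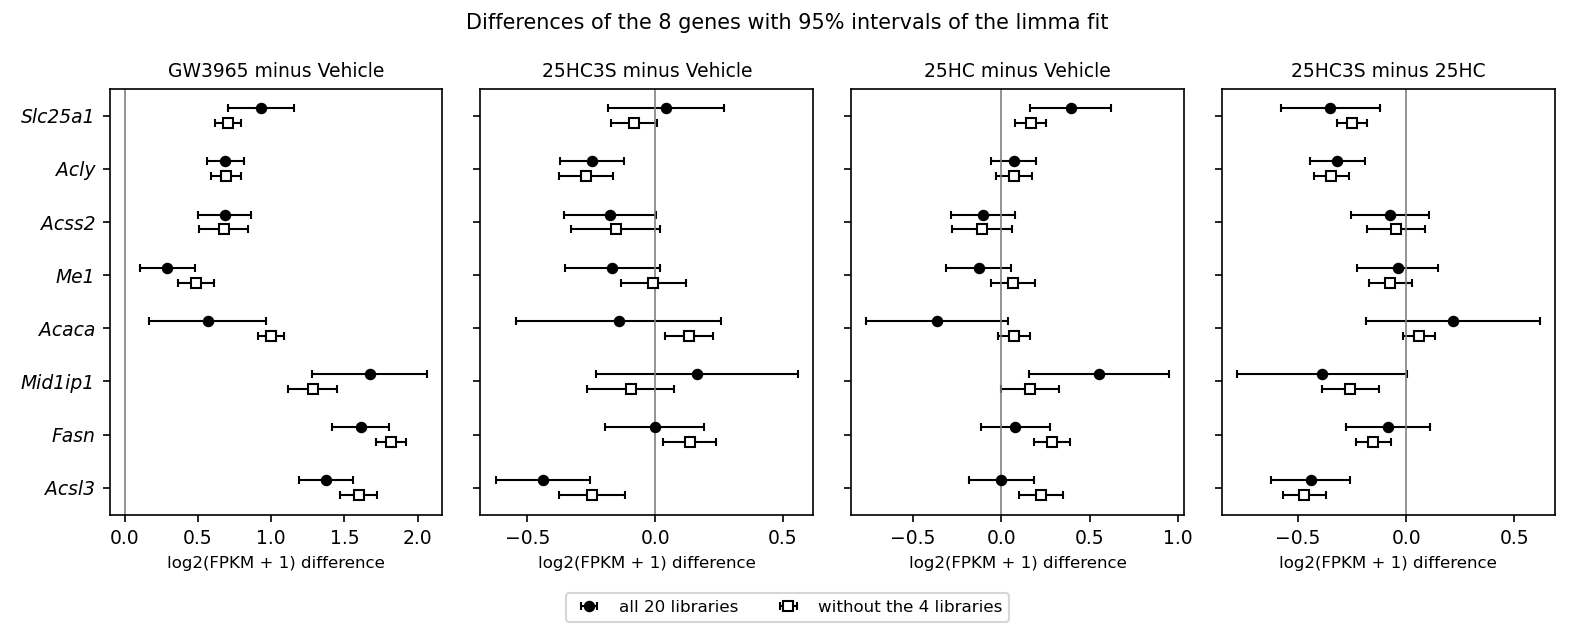
Log2(FPKM + 1) differences of the 8 genes with 95% intervals for GW3965, 25HC3S and 25HC minus Vehicle and for 25HC3S minus 25HC. Filled points use all 20 libraries and open points leave out the 4 that stand apart, which leaves 2 Vehicle libraries. For GW3965 minus Vehicle *Fasn* lies at 1.61 and *Me1* at 0.29, while for 25HC3S minus Vehicle *Acsl3* lies at -0.44 and *Fasn* at -0.00.

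The 8 genes did not move by one common factor. Each gene was divided by *Fasn* within its own library, as the log2 ratio of FPKM + 1. A scaling factor of the library cancels nearly in this ratio for genes far above 1 FPKM, but not for *Acss2*, which is left out of the counts. In GW3965 libraries 5 of the other 6 genes were lower relative to *Fasn* than in Vehicle libraries, by an exact permutation test over the libraries (smallest possible p = 0.00794, adjusted over 7 genes, *Acss2* included). *Me1* to *Fasn* differed by -1.32, *Acaca* by -1.05, *Acly* by -0.93 and *Slc25a1* by -0.68, each with an adjusted p of 0.0111. *Acsl3* to *Fasn* differed by -0.24 (adjusted p = 0.0278), a call that was lost in 7 of the 10 repeats without 1 library. *Mid1ip1* to *Fasn* differed by 0.06 (adjusted p = 0.889), and its sign changed without Vehicle replicate 3 (-0.21) or 4 (-0.05), and it was -0.54 without the 4 libraries. *Acss2* to *Fasn* differed by -0.93 with 1 added to FPKM and by -0.54 with 0.1 added.

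Against 25HC, where none of the 4 libraries enters, all of the other 6 genes were lower relative to *Fasn* in GW3965 libraries. *Me1* differed by -1.11 and *Acsl3* by -0.16, and *Slc25a1* differed by -0.99, *Acly* by -0.92, *Acaca* by -0.61 and *Mid1ip1* by -0.41. Adjusted p was 0.00926 for each of the 6 except *Acsl3*, where it was 0.0476 (exact permutation test). *Acsl3* was lost against both Vehicle and 25HC when 0.1 was added in place of 1. *Acss2* to *Fasn* differed by -0.75 with 1 added and by -0.27 with 0.1 added, so most of its value comes from the added 1.

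**Figure D3:**
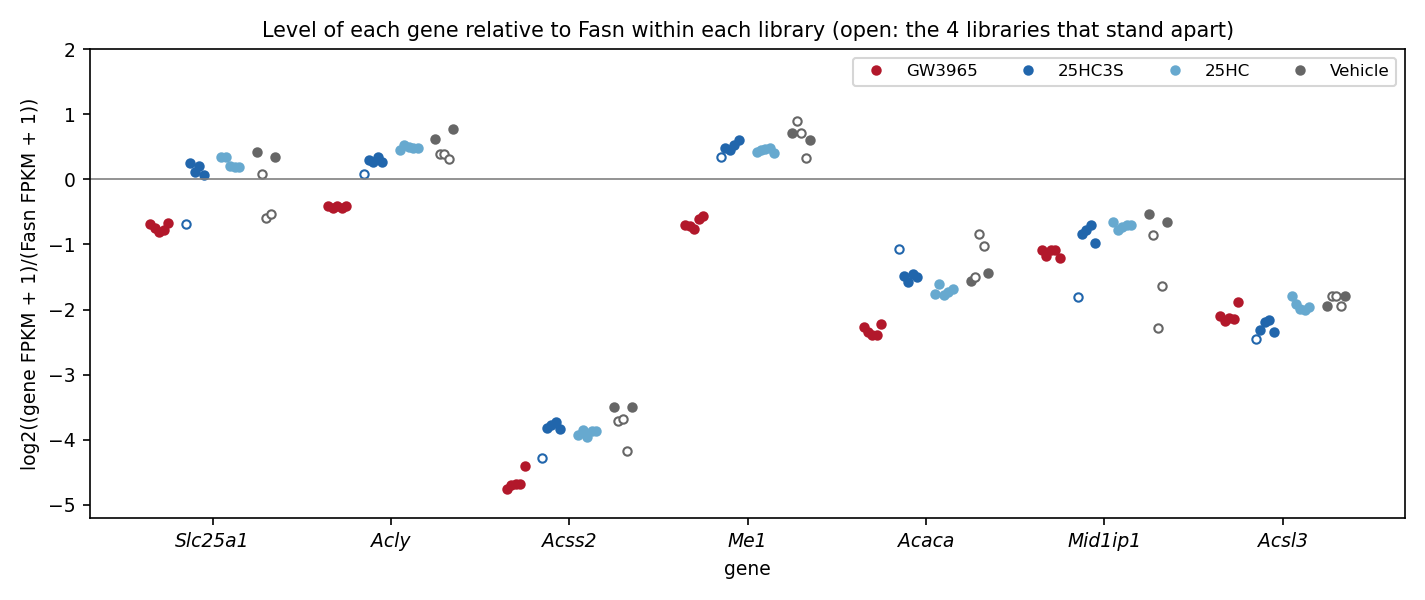
Log2 ratio of each of 7 genes to *Fasn* within each library, as log2((gene FPKM + 1)/(Fasn FPKM + 1)), by group. Open points are the 4 libraries that stand apart. GW3965 points lie below Vehicle points for *Acly* and *Me1*, while for *Mid1ip1* they lie among them.

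25HC3S against Vehicle asked what the sulfated oxysterol does. With 25HC3S, *Acsl3* and *Acly* fell, 2 of the 7 genes, none of the 7 rose, and 5 did not pass the test, while 1.14% of all genes tested were called lower. Without the 4 libraries the same 2 fell, against 2.63% of all genes. *Acsl3* measured 4.57, 3.7, 4.39, 4.19 and 3.81 FPKM with 25HC3S, and all 5 were below the lowest Vehicle library at 4.71. Its log2 difference was -0.44 ± 0.09 (limma, adjusted p = 0.012), and -0.25 ± 0.06 without the 4 libraries (adjusted p = 0.0318). *Acly* measured 31.3, 27.9, 28.6, 28.6 and 28.3 FPKM with 25HC3S, and 25HC3S replicate 1 overlapped the lowest Vehicle library. Its log2 difference was -0.25 ± 0.06 (limma, adjusted p = 0.042). In a fit of these 2 groups alone neither gene passed, and *Acly* was also lost in 7 of the 10 fits without 1 library, with an adjusted p of up to 0.126. Of 9 macrophage markers 2 fell and 1 rose with 25HC3S, beside 0.463% of all genes called higher, and 5 fell and 1 rose without the 4 libraries. Of 5 adipocyte markers 0 were called, and 2 fell without the 4. The part of either cell type in the differences of *Acsl3* and *Acly* was not tested.

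*Fasn* differed between 25HC3S and Vehicle by -0.00 ± 0.09 (95% interval -0.20 to 0.19), with 29.3, 22.5, 23.5, 22.2 and 23.4 FPKM in 25HC3S libraries. Its highest value was 25HC3S replicate 1, which stands apart, and the difference became 0.13 ± 0.05 without the 4 libraries (adjusted p = 0.149). *Acaca* showed the same split as in Vehicle, with 13.5 FPKM in 25HC3S replicate 1 and 7.4, 7.26, 7.46 and 7.57 in replicates 2 to 5. Its log2 difference was -0.14 ± 0.19 with all libraries and 0.13 ± 0.04 without the 4 (adjusted p = 0.113). *Mid1ip1* (7.63, 12.1, 13.3, 13.3 and 11.4 FPKM with 25HC3S) differed by 0.16 ± 0.19, *Slc25a1* (17.8, 26.9, 25.4, 25.7 and 24.6) by 0.04 ± 0.11, and both had the opposite sign without the 4 libraries, -0.10 and -0.08. *Me1* (37.5, 31.9, 32.7, 32.4 and 36.2 FPKM) differed by -0.17 ± 0.09 and *Acss2* (0.562, 0.663, 0.799, 0.746 and 0.712 FPKM) by -0.18 ± 0.09. None of these 6 passed the test, so a difference of the size of their intervals remains possible.

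25HC against Vehicle asked the same of the free oxysterol, with the same Vehicle libraries. None of the 7 genes passed the test (limma, adjusted p from 0.147), and of all genes tested 0.0392% were called in either direction. Before adjustment, 2 of the 8, *Slc25a1* and *Mid1ip1*, and 3863 of the 12752 genes were under 0.05 in the same limma fit. *Slc25a1* measured 31.7, 31.1, 30.6, 30.5 and 29.6 FPKM with 25HC, all above the highest Vehicle library at 28.3, and differed by 0.39 ± 0.11, or 0.17 ± 0.04 without the 4 libraries. *Mid1ip1* measured 15.3, 13.7, 15.5, 16.0 and 15.4 FPKM, overlapped Vehicle replicate 1, and differed by 0.55 ± 0.19, or 0.16 ± 0.08 without the 4. Both were called when Vehicle replicate 1 or replicate 5 was left out, which leaves mostly libraries that stand apart on the Vehicle side. In those fits 2659 and 2085 of the 12752 genes were called, 1445 and 1148 of them higher, so the 2 calls are not particular to these genes.

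Of the other genes under 25HC, *Acaca* differed most from Vehicle in the mean, and none passed the test. *Fasn* measured 24.6, 24.2, 26.5, 26.6 and 25.8 FPKM with 25HC and differed by 0.08 ± 0.09, or 0.29 ± 0.05 without the 4 libraries (adjusted p = 0.051). *Acsl3* measured 6.44, 5.73, 5.89, 5.84 and 5.89 FPKM and differed by 0.00 ± 0.09, or 0.23 ± 0.06 without the 4 (adjusted p = 0.405). *Acaca* measured 6.58, 7.24, 7.0, 7.3 and 7.3 FPKM, the level of Vehicle replicates 1, 2 and 5, and differed by -0.36 ± 0.19, or 0.07 without the 4 libraries. *Acly* (34.0, 35.6, 38.0, 37.6 and 36.5 FPKM) differed by 0.07 ± 0.06, *Me1* (33.2, 33.5, 37.0, 37.5 and 34.4) by -0.13 and *Acss2* (0.689, 0.754, 0.765, 0.893 and 0.83) by -0.10. For neither oxysterol did any ratio to *Fasn* pass against Vehicle (exact permutation test, smallest adjusted p = 0.0556).

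25HC3S against 25HC sets apart the sulfate group, at the matched dose of 20 µM and the matched time, as 1 pair of compounds. With 25HC3S, *Acsl3* and *Acly* fell relative to 25HC, 2 of the 7 genes, while 0.659% of all genes tested were called lower. *Acsl3* averaged 4.13 ± 0.37 FPKM with 25HC3S and 5.96 ± 0.277 FPKM with 25HC (SD, n = 5 each), a log2 difference of -0.44 ± 0.09 (limma, adjusted p = 0.0154). *Acly* averaged 28.9 ± 1.34 FPKM with 25HC3S and 36.3 ± 1.64 FPKM with 25HC, a difference of -0.32 ± 0.06 (adjusted p = 0.0098). Neither gene's groups overlapped. The *Acsl3* call was lost without 25HC replicate 1, 25HC3S replicate 2 or 25HC3S replicate 5, with an adjusted p of up to 0.0608.

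*Mid1ip1* and *Slc25a1* were also lower in every 25HC3S library than in any 25HC library, without passing the test. The share of all genes tested without overlap between these groups was not counted, so the lack of overlap is a description only. *Slc25a1* averaged 24.1 ± 3.61 FPKM with 25HC3S and 30.7 ± 0.777 with 25HC, a difference of -0.35 ± 0.11 (adjusted p = 0.236), and *Mid1ip1* 11.5 ± 2.33 and 15.2 ± 0.894, a difference of -0.39 ± 0.19 (adjusted p = 0.717). Of the 10 libraries, only 25HC3S replicate 1 is among the 4 that stand apart. Without the 4, 5 of the 7 genes fell with 25HC3S, against 4.7% of all genes tested. Those were *Acsl3* by -0.47 ± 0.05 (adjusted p = 1.4e-05), *Acly* by -0.35 ± 0.04 (4e-05), *Slc25a1* by -0.25 ± 0.03 (0.00021), *Mid1ip1* by -0.26 ± 0.06 (0.018) and *Fasn* by -0.15 ± 0.04 (0.022). With all libraries *Fasn* differed by -0.08 ± 0.09.

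For the other 3 genes the interval of the difference between the 2 oxysterols spanned 0. It ran from -0.18 to 0.62 for *Acaca*, from -0.26 to 0.11 for *Acss2* and from -0.23 to 0.15 for *Me1*. Relative to *Fasn*, *Acsl3* (-0.36) and *Acly* (-0.24) were lower and *Acaca* (0.30) was higher with 25HC3S than with 25HC (exact permutation test, adjusted p = 0.0185 for each). These differences were -0.32, -0.19 and 0.21 without the 4 libraries. Adipocyte markers moved in this comparison as well, with a summed level of 23.1 to 41.4 FPKM with 25HC3S and 42.5 to 66.4 FPKM with 25HC. Of the 5 adipocyte markers tested 1 fell, *Adipoq* by -0.89, and 2 fell without the 4 libraries, while 2 of the 8, *Lep* and *Retn*, lay under 0.5 FPKM in every library. Of 9 macrophage markers 2 fell and 1 rose, beside 0.157% of all genes called higher. Without the 4 libraries, the setting in which 5 of the 7 genes fell, 6 of the 9 macrophage markers fell and 1 rose. The part of either cell type in the differences of the 5 genes was not tested.

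The genes that regulate the route moved with GW3965 in part. Of 11 regulators 10 were tested, 3 rose and none fell, with a median log2 difference of 0.27, beside 0.02 over all genes tested. Of all genes tested 3.49% were called higher. *Srebf1*, which encodes SREBP-1, averaged 159 ± 10.3 FPKM with GW3965 and 21.1 ± 4.99 FPKM with Vehicle, a difference of 2.88 ± 0.12 (limma, adjusted p = 3.1e-12). *Insig1*, which holds SREBP precursors in the endoplasmic reticulum, averaged 61.7 ± 3.53 FPKM with GW3965 and 16.1 ± 2.49 FPKM with Vehicle, a difference of 1.89 ± 0.11. *Nr1h3*, which encodes LXR alpha, differed by 0.44 ± 0.13 (adjusted p = 0.044), but by 0.10 without the 4 libraries (adjusted p = 0.517). *Nr1h2*, LXR beta, differed by 0.40, *Mlx* by 0.28, *Insig2* by 0.25, *Scap* by 0.14, *Rxra* by 0.04, *Prkaa2* by -0.05 and *Prkaa1* by -0.34, and none of these passed with all libraries. Without the 4 libraries 3 of the 10 regulators were again called higher, against 3.98% of all genes. Since *Nr1h3* was not among those 3, they include a gene that did not pass with all libraries. *Mlxipl*, which encodes ChREBP, stayed at or below 0.232 FPKM in every library and was not tested.

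With 25HC3S the same list had 1 called gene, and it fell. *Insig1* averaged 8.12 ± 1.48 FPKM with 25HC3S, 23.0 ± 2.35 FPKM with 25HC and 16.1 ± 2.49 FPKM with Vehicle. Its difference from Vehicle was -0.91 ± 0.11 (limma, adjusted p = 9.98e-05), and that from 25HC was -1.41 ± 0.11 (adjusted p = 2.5e-07). *Srebf1* averaged 21.4 ± 1.65 FPKM with 25HC3S and 26.5 ± 0.881 FPKM with 25HC, and its difference of -0.30 ± 0.12 did not pass with all libraries (adjusted p = 0.481). In 25HC3S against 25HC 1 of the 10 tested regulators was called lower with all libraries. Without the 4 libraries 2 of the 10 were called lower, against 4.7% of all genes tested.

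Partners of the carboxylase and synthase did not pass in any direction with GW3965, 4 of 7 being tested. *Mlycd*, which breaks malonyl-CoA down, differed by 0.63 ± 0.20 and by 0.20 without the 4 libraries. *Mid1*, the interaction partner after which *Mid1ip1* is named, differed by -0.29, *Aasdhppt*, which arms the synthase with its prosthetic group, by -0.17 and *Hlcs*, which attaches biotin to carboxylases, by -0.09. *Acacb*, the second acetyl-CoA carboxylase, lay at 0.626 to 1.21 FPKM over all libraries. *Thrsp*, the paralogue of *Mid1ip1*, averaged 0.51 ± 0.0805 FPKM with GW3965 and 0.0959 ± 0.162 FPKM with Vehicle, and *Olah*, the medium-chain thioesterase, stayed at or below 0.0345 FPKM. These 3 were under the filter.

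Among the lists that feed or use the route, GW3965 gave the following counts against Vehicle, where 3.49% of all genes tested were called higher and 2.97% lower. In NADPH supply 4 of 9 tested genes rose (median 0.29), among them *Idh1*, cytosolic isocitrate dehydrogenase, by 0.58 ± 0.07 and *Pgd* of the pentose phosphate pathway by 0.52 ± 0.08. In desaturases and elongases 5 of 8 rose (median 0.90), led by the stearoyl-CoA desaturases *Scd1* by 2.52 ± 0.17 and *Scd2* by 2.48 ± 0.07. In glycerolipid assembly 3 of 11 rose (median 0.18), led by the lysophospholipid acyltransferase *Lpcat3* by 1.64 ± 0.10 and *Agpat3* by 0.37 ± 0.09, the second of which was not called without the 4 libraries (0.15). Of 9 other acyl-CoA synthetases and thioesterases only *Acsl4* rose, by 0.54 ± 0.13. In citrate and acetyl-CoA supply 1 of 9 fell, *Acat1* by -0.25, which was not called without the 4 libraries, and none rose. In mitochondrial fatty acid synthesis 0 of 9 passed. Without the 4 libraries the median log2 difference was 0.08 for regulators, 0.13 for NADPH supply, where *Idh2* fell by -0.37, 1.04 for desaturases and elongases and 0.08 for glycerolipid assembly, beside 0.0071 over all genes tested.

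With 25HC3S against Vehicle, *Idh1* of the NADPH list (-0.37 ± 0.07) and *Scd1* (-0.92 ± 0.17) and *Fads2* (-0.54 ± 0.12) of the desaturase list fell, and no other gene of the lists beyond *Insig1*, *Acsl3* and *Acly* passed. Against 25HC, *Idh1* (-0.40 ± 0.07), *Fads2* (-0.62 ± 0.12) and *Scd2* (-0.49 ± 0.07) fell with 25HC3S. With 25HC against Vehicle 0 genes of these lists passed, beside the 5 called over all genes. Without the 4 libraries *Insig1* was called higher with 25HC, by 0.61 ± 0.10 (limma, adjusted p = 0.0475), and 3 genes over all. Proliferation markers moved with GW3965 as well. Of 8, 6 fell, beside 2.97% of all genes called lower, and their summed level was 98.9 to 114 FPKM with GW3965 and 148 to 189 FPKM with Vehicle. Adipocyte markers lay at 40.4 to 55.6 FPKM with GW3965 and 27.5 to 62.1 FPKM with Vehicle, with 0 of 5 called. Of 9 macrophage markers 2 fell and none rose, with a median log2 difference of -0.00013 over the 9. Without the 4 libraries 7 of the 8 proliferation markers and 1 of the 9 macrophage markers fell, beside 483 of the 12752 genes. The part of proliferation or of macrophages in the results was not tested.

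**Figure D4:**
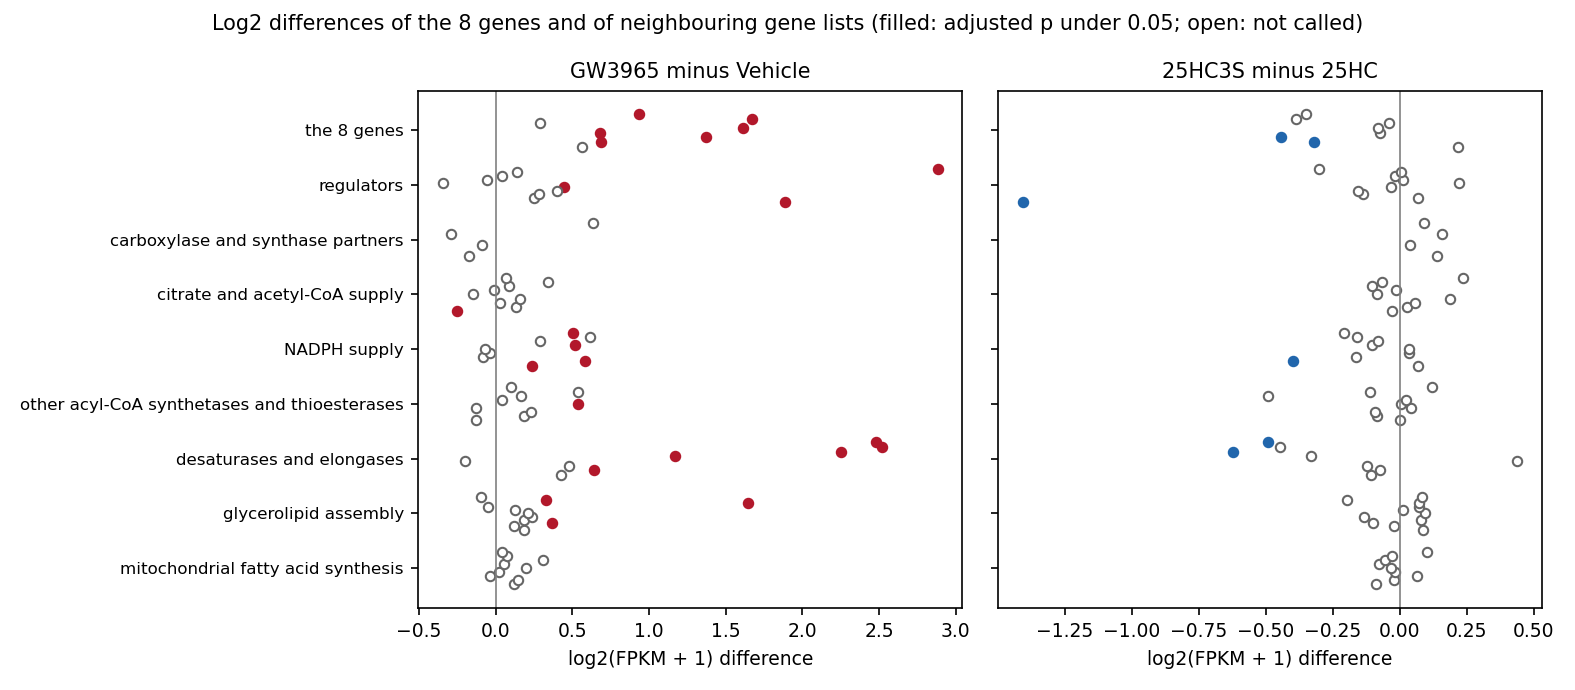
Log2(FPKM + 1) differences of the 8 genes and of 8 neighbouring gene lists for GW3965 minus Vehicle (left) and 25HC3S minus 25HC (right), 1 point per tested gene. Filled points passed at an adjusted p under 0.05. On the left *Srebf1* is the point at 2.88 and *Scd1* that at 2.52, and on the right *Insig1* is the point at -1.41.

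Outside the 8, the genes with the most similar pattern were found by the root mean square difference of their centred log2(FPKM + 1) means over the 4 groups, a description over 4 points that share libraries. Nearest to *Fasn* were *Lpcat3* (0.067), *Apod* (0.125) and *Mylip* (0.143), and nearest to *Acsl3* were *Apod* (0.0846), *Nsdhl* (0.132) and *Gm3571* (0.165). For *Acly* they were *Lrrc27* (0.0368), *Plin2* (0.044) and *Idh1* (0.0478). The genes nearest to *Mid1ip1* were *Crabp2* (0.0916), *Fabp5* (0.141) and *AB124611* (0.146). *Acaca* lay nearest to *Acsl4* (0.0773), *Gm22352* (0.0838) and *Gramd1b* (0.0949), and *Acss2* to *Elovl5* (0.0374), *Gramd1b* (0.0457) and *Acta1* (0.0534). For *Me1* the nearest were *Pdp2* (0.0104), *Zcchc24* (0.014) and *Bzw2* (0.0214), and for *Slc25a1* they were *Pdlim4* (0.00877), *Atf3* (0.0284) and *Aacs* (0.0379). The smaller the range of a gene over the groups, the more genes lie near it, so the distances of different genes cannot be ranked.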

How the data were processed

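RNA of 20 libraries of mouse articular chondrocytes was taken with Trizol and prepared with the Fast RNA-seq Lib Prep Kit, per the labels' protocols. CASAVA 1.8 and HISAT2 2.0.5 were used, per the submitters' processing notes. The counter, strand setting and build were not given in the sources used here. GENCODE M21 (GRCm38) held 99.77% of the table's identifiers. The authors deposited FPKM with gene lengths. FPKM times gene length came out as whole fragments, within 0.02, for 100% of values, which gave the depth of 14653777 to 19365220 fragments. Depth covers counting error only.

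The log2 of FPKM + 1 was tested with limma 3.58.1 (R 4.3.3), a scale that understates changes of low genes, for the 12752 genes at 1 FPKM or more in at least 5 libraries. The model held the 4 group means for all 20 libraries, with a trended variance, each comparison was 2-sided, p was adjusted by Benjamini-Hochberg over all genes tested, and calls were made under 0.05. Ratios to *Fasn* were tested by exact permutation over libraries. The steps were tested on simulated data. The limma simulation drew libraries independently, with the same spread in every library. It therefore cannot show how calls behave with the 4 libraries that stand apart. Python 3.11.15 was used for the rest. No 2 libraries of a group differed by sampling noise alone (chi-square per gene from 2.62).

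The text names all 8 genes, every gene of the regulator and partner lists, and of each other list the 2 called genes with the largest difference for GW3965 and for 25HC3S against Vehicle, and other genes named were chosen after their values were seen. One further list, of fatty acid oxidation, is not reported here. The 8 genes and all lists were chosen with earlier results of these data known. Alternatives were a pseudocount of 0.1, no filter, median-ratio scaling, a fit of the 2 groups alone, a replicate block, leaving out each library and, added after seeing the data, leaving out the 4 libraries. The median-ratio factors lay between 0.9789 and 1.006, so that alternative could change the values little.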

Additional observations from a re-analysis of the deposited data

Results flagged for a closer look

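Of 32 groups of 5 libraries (8 genes in 4 groups), 5 held a library far from the others by Dixon's test, where chance gives about 1 in 20. Of these, 4 were 25HC3S replicate 1, one of the 4 libraries that stand apart. There *Acaca* was at 13.52 FPKM, with the next library at 7.571, *Fasn* at 29.31 (next 23.53), *Acly* at 31.27 (next 28.58) and *Slc25a1* at 17.8 (next 24.6). The fifth was *Acsl3* at 6.437 FPKM in 25HC replicate 1 (next 5.891), a library that does not stand apart. Relative to the mean of the libraries of their own group that do not stand apart, Vehicle replicates 3 and 4 and 25HC3S replicate 1 were at 2.33, 2.0 and 1.82 for *Acaca*, and at 0.381, 0.631 and 0.61 for *Mid1ip1*. For *Acly* the 4 libraries, Vehicle replicate 2 included, lay between 0.893 and 1.1. The cause was not tested.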

How the results depend on the processing

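The direction and the call of the 7 genes at 1 FPKM or more in every library were the same in GW3965 against 25HC under every alternative run. *Acss2*, which entered the test only through GW3965, is left out of this count. Leaving out the 4 libraries, chosen after seeing the data, reversed 6 gene differences and 5 ratios to *Fasn*, none of them called. The differences were *Acaca* (0.13), *Fasn* (0.13), *Mid1ip1* (-0.10) and *Slc25a1* (-0.084) for 25HC3S against Vehicle and *Acaca* (0.073) and *Me1* (0.067) for 25HC against Vehicle. The ratios were *Mid1ip1* for GW3965 (-0.54), 25HC3S (-0.23) and 25HC (-0.12) against Vehicle and *Slc25a1* for 25HC3S (-0.22) and 25HC (-0.12) against Vehicle. Median-ratio scaling reversed *Acsl3* for 25HC against Vehicle (-0.011), and a pseudocount of 0.1 reversed *Acss2* to *Fasn* for 25HC3S against 25HC (-0.071). Replicate numbers did not pair the libraries (30 same-numbered pairs, correlations from -0.702 to 0.27, 4 of 20 libraries closest to their own number). With the replicate block, calls over all genes were 544 for GW3965 against Vehicle (824 without it) and 1 for 25HC against Vehicle (5), 1 of the 8 genes passed for 25HC3S against Vehicle (2), and ratios to *Fasn*, *Acss2* included, gave 0 calls for GW3965 against Vehicle (6), 25HC3S against 25HC (3) and GW3965 against 25HC (7), since 5 pairs cannot reach a p under 0.05. A fit of the 2 groups compared gave 152 calls over all genes for GW3965 against Vehicle, 23 for 25HC3S against Vehicle (205 in the fit of all groups, with 0 of the 8 genes), 1 for 25HC against Vehicle, 205 for 25HC3S against 25HC (104), 1427 for GW3965 against 25HC (222) and 1009 for GW3965 against 25HC3S (591). Without the 4 libraries these counts were 504 for 25HC3S against Vehicle, 3 for 25HC against Vehicle, 916 for 25HC3S against 25HC (with 5 of the 8 genes), 1674 for GW3965 against 25HC and 2278 for GW3965 against 25HC3S.

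Leaving out 1 library at a time gave 450 to 3247 calls over all genes for GW3965 against Vehicle, highest without Vehicle replicate 1 and 2998 without replicate 5, 98 to 622 for 25HC3S against Vehicle, 1 to 2659 for 25HC against Vehicle (2085 without Vehicle replicate 5) and 60 to 93 for 25HC3S against 25HC. Of the 8 genes 1 to 2 passed for 25HC3S against Vehicle, 0 to 2 for 25HC against Vehicle and 1 to 2 for 25HC3S against 25HC. Ratios to *Fasn* gave 0 to 4 calls for 25HC3S against Vehicle and 0 to 3 for 25HC against Vehicle, the highest of each without Vehicle replicate 4. Uncalled values changed sign as well. For 25HC3S against Vehicle *Acaca* ran from -0.30 to 0.026, *Fasn* from -0.071 to 0.058, *Mid1ip1* from -0.047 to 0.29, *Slc25a1* from -0.029 to 0.14, and relative to *Fasn* *Slc25a1* from -0.087 to 0.22 and *Mid1ip1* from -0.11 to 0.37. For 25HC against Vehicle *Acsl3* ran from -0.070 to 0.079 and *Acly* to *Fasn* from -0.057 to 0.060. *Mid1ip1* to *Fasn* for GW3965 against Vehicle ran from -0.21 to 0.22, and *Acss2* to *Fasn* for 25HC3S against 25HC from -0.031 to 0.11. The cause of these changes was not tested. Depth limits *Acss2* most, at 89 fragments in 25HC3S replicate 1, the fewest of any library.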
